A study of Drosophila melanogaster with 18 samples.

Results

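The late-to-prepupal change of gene expression in the larval fat body of a Dutch population of *Drosophila melanogaster* was followed in 6 RNA-seq libraries, 3 of white prepupae and 3 of late wandering larvae of the third instar. All genes with a mean of at least 15 counts over the 18 libraries of the series entered the comparison, which gave 12460 of the 16438 genes in the table. Prepupae had formed a puparium and no longer wriggled, and late larvae were told from early wandering larvae by the colour that a diet with 5% bromophenol blue leaves in the gut. Every library, early, late and prepupal, came from dissected fat bodies of females of wild-derived isofemale strains, with no mutation or drug, staged at 25°C at 250 larvae per vial. A Dutch library pooled 36 fat bodies, 3 from each of 12 strains from the Netherlands, and a Zambian library, used below as the other population, pooled 30 fat bodies from 10 strains at the same stages. The same strains were pooled in every replicate, so the spread between the 3 libraries of a stage, and the p-values that rest on it, do not measure differences among strains or among single animals.

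The fat body stores fat, glycogen and protein during larval feeding and does much of the work that vertebrates leave to liver and adipose tissue, including detoxification and the secretion of hemolymph proteins and antimicrobial peptides. A pulse of the steroid 20-hydroxyecdysone ends larval life: the hormone binds the receptor EcR with its partner Usp, switches on a small set of transcription factors, and these in turn act on the genes of each tissue. In the larval fat body this program is known for the turn from synthesis to uptake of storage proteins, for autophagy, and for the loosening of the sheet of fat cells into single cells, which survive into the pupa.

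Total counts were 14998610 to 30328600 in the prepupal libraries and 22926726 to 28515174 in the late libraries, and the 10 genes with the most counts took 43.8% to 44.6% of the counts in prepupal and 45.1% to 49.7% in late libraries. Prepupal replicate 2 was the shallowest library. The late libraries lay apart from each other on the first principal component of the 500 most variable genes (69.0% of their variance), at 7.93, -2.69 and -8.12 for replicates 1, 2 and 3, between the prepupal libraries at -30.3 to -28.4 and the early libraries at 39.3 to 42.1. Late replicate 1 was thus the late library farthest from the prepupae, and a number of the results below are also given without it. The labelled tissue was checked against 12 fat body genes, among them *Fbp1*, *Lsp2* and *apolpp*, whose summed level, most of it *Fbp1* and the *Lsp* genes, was 271679 to 321721 CPM in prepupal and 273641 to 397213 CPM in late libraries. Of the 12 genes, 10 had a negative log2 fold change (prepupal over late, median -0.42), 4 were lower and 1 was higher by the test given below.

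In prepupae, 957 genes were higher and 928 genes were lower than at the late stage (Benjamini-Hochberg adjusted p under 0.05 in the quasi-likelihood test of edgeR), which is 7.68% and 7.45% of the 12460 genes tested and 15.1% together. Among all tested genes, the 3 prepupal libraries lay above the 3 late ones in 13.5% and below them in 15.5%. The median log2 fold change of all tested genes was -0.09. The genes that fell changed more than those that rose: the median absolute log2 fold change was 0.89 among the lower and 0.68 among the higher genes, and 71 lower but 17 higher genes changed at least by a log2 fold change of at least 2. Late replicate 1 was the highest of the late libraries in 817 of the 928 lower genes (88.0%, against 40.4% of all tested genes) and the lowest in 575 of the 957 higher genes (60.1%, against 42.4% of all). Without late replicate 1, 617 genes were higher and 820 lower, and without prepupal replicate 2, 618 were higher and 766 lower. With scaling factors taken from genes of at least 10 CPM only, 965 genes were higher and 1541 lower, so the share of calls that were higher was 38.5% in place of 50.8%.

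**Figure D1:**
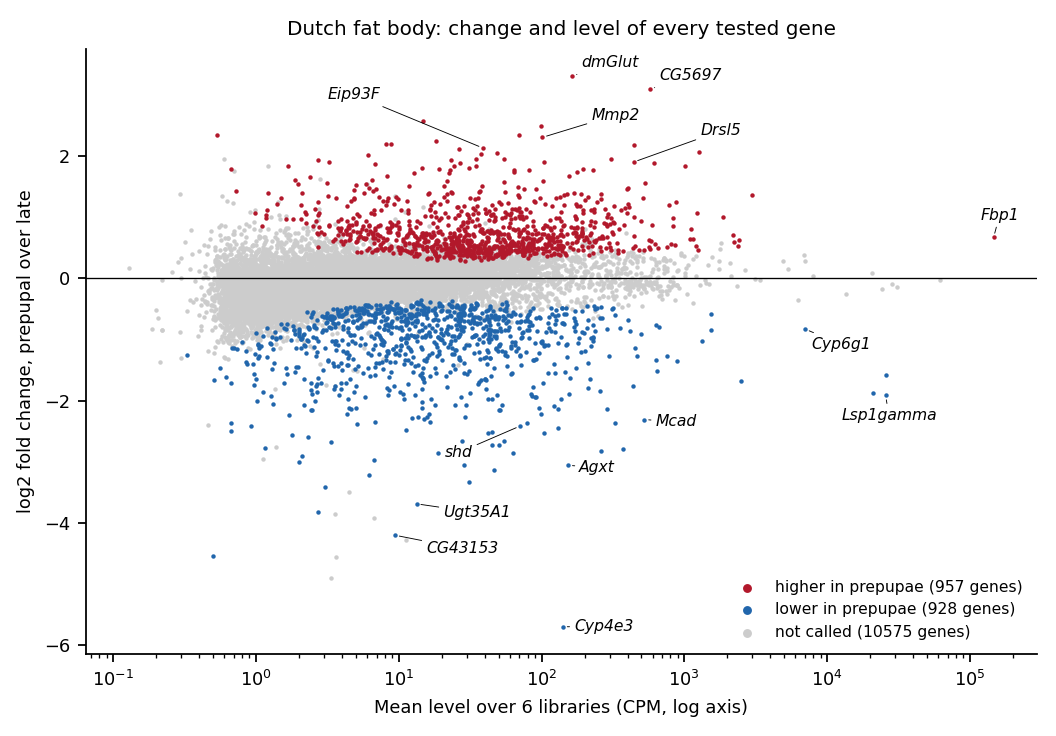
Log2 fold change of prepupal over late Dutch libraries (vertical axis) against the mean level over the 6 libraries in CPM (horizontal log axis) for each of the 12460 tested genes. The 957 genes called higher in prepupae are red, the 928 called lower blue and the others grey, and *Cyp4e3* lies lowest of the called genes at -5.70.

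Among called genes whose stages do not overlap and whose mean over the 6 libraries was 1 CPM or more, the largest increase was that of *dmGlut*, the dietary and metabolic glutamate transporter (chr2L:12027438-12034122, plus strand, coordinates of the BDGP6 assembly, dm6), with 278, 352 and 268 CPM in the prepupal libraries, against 19.5, 42.3 and 28.4 CPM in the late libraries. CPM are counts scaled to the same library size with edgeR's TMM factors, and the 3 values of a stage are always given for replicates 1, 2 and 3. The log2 fold change of *dmGlut*, prepupal over late, was 3.31 ± 0.31, adjusted p = 5.65e-07 (± SE, n = 3 libraries a stage), and other values written in this form are the same quantities. *CG5697* (chr3R:21015949-21017120, plus strand) had prepupal levels of 1016, 1092 and 994 CPM and late levels of 113, 141 and 108 CPM (3.10 ± 0.19, adjusted p = 2.86e-09). In both genes the lowest prepupal library was well above the highest late one, and the early libraries averaged 7.03 CPM for *dmGlut* and 8.47 CPM for *CG5697*. *CG33080* had 161, 178 and 169 CPM in prepupae, against 22.4, 35.8 and 31.5 CPM at the late stage (2.5 ± 0.17, adjusted p = 9.76e-09). *CG7227*, a member of the CD36 scavenger receptor family, had 118, 128 and 101 CPM in the prepupal libraries, against 21.6, 24.4 and 22.4 CPM in the late libraries (2.34 ± 0.24, adjusted p = 1.17e-06). The stages did not overlap in either gene, as the choice of these genes required. *CG10516*, with prepupal levels of 42.9, 42.6 and 43.0 CPM and late levels of 10.2, 10.6 and 9.01 CPM, had the smallest SE of the 12 such genes with the largest increases (2.11 ± 0.11, adjusted p = 5.67e-10). The others of these 12 were *CG11192* (2.57), *Mmp2* (2.31), *CG7924* (2.26), *CG7084* (2.20), the lncRNA gene *CR44996* (2.20), *CG34206* (2.19) and *Eip93F* (2.13). *CG34206* lies within the gene *a*, which codes on the other strand and was also higher (1.68), and reads of such pairs may not be separable because the counting is not stated to use the strand.

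Several genes with more counts rose by a similar fold, and the 4 given here were chosen after their values were seen. *CG9812* had 2254, 1993 and 1910 CPM in prepupae, against 415, 617 and 434 CPM at the late stage (2.07 ± 0.26, adjusted p = 1.28e-05). *santa-maria*, a CD36-family scavenger receptor for carotenoid uptake, had 1642, 1670 and 1396 CPM in the prepupal libraries, against 335, 484 and 492 CPM in the late libraries (1.85 ± 0.25, adjusted p = 3.18e-05). In the early libraries they averaged 12.7 CPM for *CG9812* and 11.4 CPM for *santa-maria*. The genes for tyrosine hydroxylase, *ple*, and for beta-alanyl-dopamine synthase, *e*, which act in cuticle tanning and pigmentation, averaged 78.6 ± 8.68 CPM in prepupae and 19.0 ± 8.02 CPM at the late stage for *ple* (2.05 ± 0.24, adjusted p = 6.77e-06) and 42.4 ± 5.96 CPM in prepupae and 11.4 ± 3.71 CPM at the late stage for *e* (1.89 ± 0.22, adjusted p = 4.69e-06).

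The largest decrease of all called genes was that of *Cyp4e3*, a cytochrome P450 (chr2L:9747839-9750071, minus strand), with prepupal levels of 6.89, 6.40 and 2.84 CPM and late levels of 414, 209 and 208 CPM. The prepupal mean was 1.94% of the late mean (log2 fold change -5.70 ± 0.55, adjusted p = 9.13e-07), and the early libraries averaged 50.1 CPM, so the level was highest at the late stage among the 3 stages. *CG43153* (chr2L:11521765-11522776, minus strand) had 0.909, 1.32 and 0.804 CPM in prepupae, against 31.8, 16.7 and 4.97 CPM at the late stage (-4.20 ± 0.63, adjusted p = 8.52e-05). *Ugt35A1*, a UDP-glycosyltransferase (chr3R:11170817-11172664, minus strand), had 1.44, 2.07 and 2.27 CPM in the prepupal libraries, against 41.5, 19.9 and 12.7 CPM in the late libraries (-3.69 ± 0.44, adjusted p = 7.24e-06). In these 3 genes the prepupal libraries all lay below the late ones, as their choice required, and late replicate 1 was the highest of the late libraries. *Sodh2*, a sorbitol dehydrogenase (chr3R:10876384-10878257, plus strand), had prepupal levels of 4.78, 6.22 and 5.91 CPM and late levels of 106, 37.4 and 26.4 CPM (-3.33 ± 0.38, adjusted p = 4.70e-06). *Agxt*, alanine-glyoxylate aminotransferase (chrX:6528948-6530726, plus strand), had 29.3, 39.0 and 30.4 CPM in prepupae, against 470.1, 182 and 169 CPM at the late stage (-3.06 ± 0.30, adjusted p = 9.63e-07). The others of the 12 genes with the largest decreases, at a mean of at least 1 CPM and with stages that do not overlap, were *CG15293* (-3.14), *CG6330* (-3.06), the lncRNA gene *CR45195* (-2.98) and 4 larval cuticle protein genes, *Lcp65Ab2* (-3.42), *Lcp4* (-3.22), *Lcp2* (-3.0) and *Lcp3* (-2.91). The cuticle genes stood at low levels, and the call of *Lcp3* was lost in 1 case, with an adjusted p of 0.0891 without late replicate 1. Among genes of higher level, chosen after their values were seen, *Miox*, myo-inositol oxygenase, averaged 93.4 ± 18.5 CPM in prepupae and 649 ± 339 CPM at the late stage (-2.80 ± 0.31, adjusted p = 3.85e-06), *Sodh1* averaged 30.6 ± 4.98 CPM in prepupae and 176 ± 114 CPM at the late stage (-2.53 ± 0.31, adjusted p = 1.10e-05), and *Gnmt*, glycine N-methyltransferase, averaged 34.8 ± 6.77 CPM in prepupae and 162 ± 95.9 CPM at the late stage (-2.22 ± 0.29, adjusted p = 2.15e-05).

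**Figure D2:**
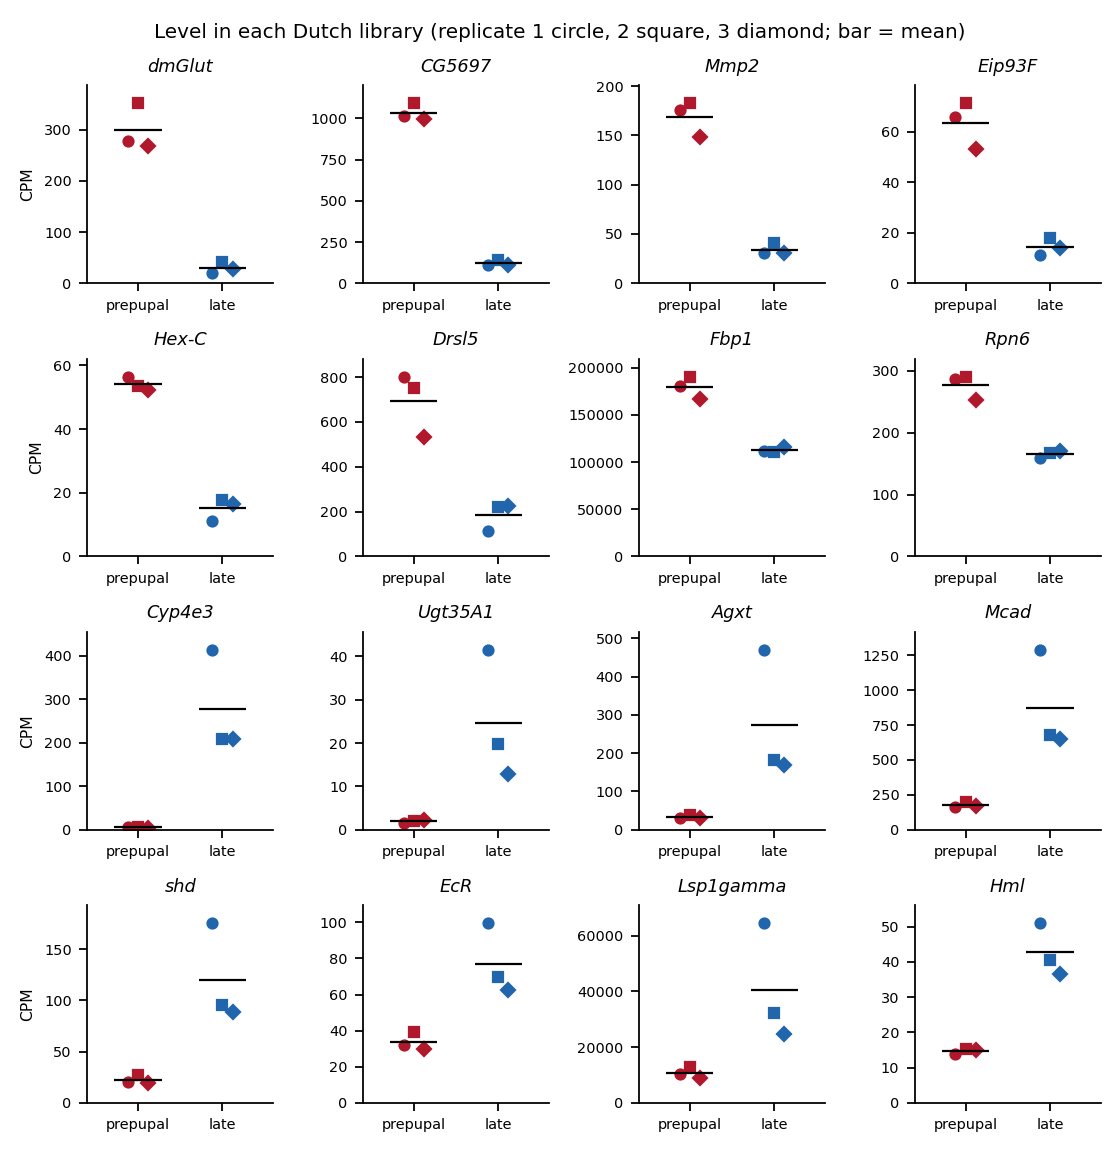
Level in CPM (vertical axes, each from 0) of 16 genes in each Dutch library, prepupal in red on the left and late in blue on the right, with replicate 1 as a circle, 2 as a square, 3 as a diamond and the mean as a bar. The stages do not overlap in any of the 16 genes, and the late circle stands well above the other late libraries in genes such as *Agxt*, where it is at 470.1 CPM.

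Of 24 genes of the ecdysone receptor and its early regulators, 7 were higher and 1 was lower in prepupae, with a median log2 fold change of 0.30 (0.14 without late replicate 1). *Eip93F*, the transcription factor E93 that is known to act in the turnover of larval tissues at metamorphosis, had 65.9, 71.3 and 53.1 CPM in the prepupal libraries, against 11.4, 18.1 and 13.8 CPM in the late libraries (2.13 ± 0.19, adjusted p = 5.00e-07). The nuclear receptor gene *Hr3* had prepupal levels of 23.5, 27.4 and 19.8 CPM and late levels of 8.17, 9.62 and 8.94 CPM (1.40 ± 0.15, adjusted p = 2.99e-06). *Eip75B*, another nuclear receptor of the cascade, had 296, 347 and 284 CPM in prepupae, against 146, 147 and 197 CPM at the late stage (0.92 ± 0.15, adjusted p = 2.48e-04). All 3 prepupal libraries lay above the late ones in each of these genes. The receptor gene *EcR* changed the other way, with 32.0, 39.5 and 29.7 CPM in the prepupal libraries, against 99.7, 69.5 and 62.3 CPM in the late libraries (-1.20 ± 0.18, adjusted p = 7.10e-05). *br*, the member of the list with the most counts, had prepupal levels of 318, 383 and 255 CPM and late levels of 183, 236 and 321 CPM and was not called (0.37 ± 0.17, adjusted p = 0.183), while without late replicate 3 its adjusted p was 0.0175. The other members called higher were *Hr4* (0.68), *let7C* (0.88), *Sox14* (0.52) and *tai* (0.45), and the calls of all 4 were lost without late replicate 1, with adjusted p of 0.113, 0.0868, 0.205 and 0.183 in that order. The number of higher members was 3 without late replicate 1, 11 without late replicate 3 and 4 without prepupal replicate 2.

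Among the 4 genes of ecdysone import, activation and clearance, only *shd* was called. *shd* encodes Shade, the P450 that converts ecdysone to 20-hydroxyecdysone in target tissues, and had 20.3, 27.6 and 19.6 CPM in prepupae, against 175, 95 and 88.2 CPM at the late stage (-2.42 ± 0.22, adjusted p = 5.00e-07). The importer gene *Oatp74D* had 83.8, 97.4 and 82.9 CPM in the prepupal libraries, against 139, 98.7 and 87.5 CPM in the late libraries, with overlapping stages, and was not called (-0.30 ± 0.16, adjusted p = 0.241). Of 11 ecdysone-induced effector genes, 2 were higher, *ImpE2* (1.48) and *Fbp1*, and none was lower. Of 9 genes of juvenile hormone reception and breakdown, 3 were lower and none was higher, and the 3 were the juvenile hormone epoxide hydrolase genes *Jheh3* (-1.20 ± 0.20, adjusted p = 2.37e-04), *Jheh1* (-1.0 ± 0.16, adjusted p = 1.87e-04) and *Jheh2* (-0.69 ± 0.15, adjusted p = 0.00228). Their prepupal libraries all lay below the late ones, and the *Jheh3* means were 25.5 ± 2.77 CPM in prepupae and 58.6 ± 23.8 CPM at the late stage.

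The storage protein genes, whose products are a reserve that the larva carries into metamorphosis, made a list of 6 tested genes, of which 3 were lower and 1 was higher. *Lsp1gamma* had prepupal levels of 10495, 12732 and 9009 CPM and late levels of 64630, 32441 and 24626 CPM (-1.92 ± 0.29, adjusted p = 9.53e-05). *Lsp1alpha* had 8426, 10862 and 7763 CPM in prepupae, against 50545, 25954 and 23112 CPM at the late stage (-1.88 ± 0.25, adjusted p = 2.71e-05). *Lsp1beta* had 11716, 15276 and 11831 CPM in the prepupal libraries, against 58008, 31352 and 26321 CPM in the late libraries (-1.58 ± 0.25, adjusted p = 1.57e-04). These 3 hexamerin subunit genes were lower in every prepupal library than in any late one, and together they took 3.45% to 4.13% of the counts in prepupal and 9.43% to 17.1% in late libraries, with the 17.1% in late replicate 1. *Lsp2*, the fourth hexamerin gene, had prepupal levels of 29219, 31510 and 26742 CPM and late levels of 40424, 28775 and 27763 CPM, with overlapping stages, and was not called (-0.15 ± 0.17, adjusted p = 0.656). *Fbp1*, the receptor that takes storage proteins back into the fat cells and an ecdysone target, was the gene with the most counts, with 180997, 190691 and 167384 CPM in prepupae, against 111360, 111189 and 116396 CPM at the late stage (0.67 ± 0.19, adjusted p = 0.0201). It took 20.3% to 21.4% of the counts in prepupal and 11% to 14.8% in late libraries. Its stages did not overlap, but its call did not hold without 1 library in 4 of 6 cases, with adjusted p of 0.0555 without late replicate 1, 0.0575 without late replicate 2, 0.0649 without prepupal replicate 1 and 0.0798 without prepupal replicate 2. Per length, *Fbp1* stood at a mean of 85544 TPM in prepupae and 53311 TPM at the late stage, and *Lsp1gamma* at 7030 TPM in prepupae and 25208 TPM at the late stage. *Fbp2* (0.10) and the lipophorin gene *apolpp* (-0.09) were not called and overlapped between the stages.

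Both matrix metalloproteinase genes and the gene of their inhibitor were higher in prepupae. *Mmp2*, a membrane-anchored protease known to act in fat body dissociation, had 175, 183 and 148 CPM in the prepupal libraries, against 31.2, 40.7 and 30.2 CPM in the late libraries (2.31 ± 0.18, adjusted p = 1.17e-07). *Mmp1*, the secreted enzyme, had prepupal levels of 101, 124 and 95.4 CPM and late levels of 31.2, 51.9 and 62.2 CPM (1.14 ± 0.21, adjusted p = 7.83e-04). *Timp*, the tissue inhibitor, had 5.45, 6.09 and 5.42 CPM in prepupae, against 2.63, 3.75 and 2.98 CPM at the late stage (0.85 ± 0.22, adjusted p = 0.0103), with an adjusted p of 0.0818 without late replicate 1. The summed level of the 3 genes was 249 to 313 CPM in prepupal and 65.0 to 96.3 CPM in late libraries, against 11.9 to 13.4 CPM in early libraries, and the prepupal sum was 3.28 times the late one (2-sided exact permutation test, p = 0.1, the smallest that 3 against 3 libraries allow). Of 13 genes of the basement membrane and of collagen maturation, 1 was higher (7.69%, against 7.68% of all tested genes). It was the collagen XV/XVIII gene *Mp* (1.27 ± 0.16, adjusted p = 9.19e-06). The 3 lower genes (23.1%, against 7.45% of all) were *Plod* (-1.03), *Ndg* (-0.49) and *Pxn* (-0.36). *Ndg* had an adjusted p of 0.0555 without late replicate 1 and 0.148 without prepupal replicate 1, and *Pxn* of 0.0506 without late replicate 1, 0.0699 without late replicate 2, 0.118 without prepupal replicate 1 and 0.167 without prepupal replicate 2.

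Of 16 genes of the cytoskeleton and cell shape, 7 were higher and 2 were lower, with a median of 0.28. *shg*, which encodes E-cadherin, had 136, 159.9 and 109.5 CPM in the prepupal libraries, against 37.2, 54.4 and 56.0 CPM in the late libraries (1.46 ± 0.17, adjusted p = 5.22e-06). *Act5C*, a cytoplasmic actin, had prepupal levels of 2480, 2645 and 2360 CPM and late levels of 963, 1405 and 1367 CPM (1.0 ± 0.15, adjusted p = 6.57e-05). *zip*, the nonmuscle myosin heavy chain, rose with a log2 fold change of 0.75. *cher*, which encodes filamin, had 37.7, 43.6 and 34.8 CPM in prepupae, against 90.4, 88.7 and 71.6 CPM at the late stage (-1.11 ± 0.15, adjusted p = 3.39e-05). The focal adhesion kinase gene *Fak* was higher (0.97 ± 0.12, adjusted p = 1.51e-05) and the integrin gene *mew* was lower (-0.93 ± 0.14, adjusted p = 1.23e-04), the only 2 called of 14 genes of integrins and adhesion (7.14% in each direction, against 7.68% higher and 7.45% lower of all tested genes). In each of these genes the stages did not overlap.

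Of 28 autophagy genes, 5 were higher (17.9%, against 7.68% of all tested genes) and none was lower (against 7.45% of all), with a median of 0.16. They were *Rubicon*, whose mammalian counterpart is known to restrain autophagy, with 29.9, 31.2 and 27.8 CPM in the prepupal libraries, against 14.5, 14.9 and 14.9 CPM in the late libraries (1.0 ± 0.19, adjusted p = 9.65e-04), *Atg4b* (0.68), *Atg2* (0.60), *Atg3* (0.54) and *Snap29* (0.49), the last with an adjusted p of 0.0927 without late replicate 1 and 0.068 without prepupal replicate 1. *Atg8a*, the member with the most counts, had prepupal levels of 373, 404 and 292 CPM and late levels of 352, 287 and 314 CPM, with overlapping stages, and was not called (0.17 ± 0.19, adjusted p = 0.643). None of 28 tested subunit genes of the vacuolar proton pump, which acidifies the lysosome, was called in either direction, and 19 of the 28 had a positive log2 fold change. Of 13 tested genes of apoptosis, 3 were higher (23.1%, against 7.68% of all tested genes) and 1 was lower (7.69%, against 7.45% of all). *Dronc*, the initiator caspase, had 79.5, 91.8 and 73.0 CPM in prepupae, against 29.4, 27.9 and 34.1 CPM at the late stage (1.42 ± 0.16, adjusted p = 4.79e-06). The effector caspase gene *Decay* was lower (-0.99 ± 0.21, adjusted p = 0.0022). *Strica* (0.61) and the caspase inhibitor gene *Diap1* (0.52) were higher, but the call of *Strica* was lost with an adjusted p of 0.0527 without late replicate 1, and that of *Diap1* with 0.0676 without prepupal replicate 2.

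The proteasome list held the highest share of higher calls of the lists of more than 3 genes: 19 of 32 subunit genes were higher and none was lower, beside 7.68% of all tested genes. All 32 log2 fold changes of the list were positive, with a median of 0.41 and a highest value of 0.74. In 28 of the 32 the prepupal libraries all lay above the late ones. The list does not hold every tested gene of these names, and some genes outside it were negative. The lowest log2 fold change was -0.55 among 10 tested *Prosalpha* genes, -0.30 among 10 *Prosbeta* genes and -0.14 among 9 *Rpt* genes. *Rpn6*, of the lid of the regulatory particle, had 286, 291 and 253 CPM in the prepupal libraries, against 159.7, 168 and 170.3 CPM in the late libraries (0.74 ± 0.13, adjusted p = 2.81e-04). The ATPase subunit genes *Rpt3* (0.61 ± 0.13, adjusted p = 0.00189) and *Rpt6* (0.55 ± 0.12, adjusted p = 0.00253) and the lid gene *Rpn7* (0.57 ± 0.11, adjusted p = 0.00128) followed. The summed level of the list was 3265 to 3797 CPM in prepupal and 2484 to 2761 CPM in late libraries, a ratio of 1.36 (exact permutation test, p = 0.1). Each change was under 1 on the log2 scale, and the number of higher members was 30 with upper-quartile scaling factors, 9 without prepupal replicate 1, 10 without late replicate 2 and 10 without prepupal replicate 2.

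None of 89 tested cytosolic and none of 72 tested mitochondrial ribosomal protein genes was called, with medians of -0.09 and -0.19 beside -0.09 for all genes. With factors from genes of at least 10 CPM, 7 cytosolic and 6 mitochondrial ribosomal protein genes were lower, and with the libraries' median chemosensory receptor level as a covariate, 65 cytosolic and 8 mitochondrial ones were. Of 69 tested subunit genes of oxidative phosphorylation, 12 were lower and none was higher, with a median of -0.32 (-0.20 without late replicate 1). They included *ATPsynE*, with prepupal levels of 15.1, 17.0 and 13.9 CPM and late levels of 42.4, 24.1 and 19.8 CPM (-0.91 ± 0.22, adjusted p = 0.00532), and *ATPsyndelta* (-0.78 ± 0.19, adjusted p = 0.0067). This number was 31 without late replicate 3, 5 without late replicate 1, 2 without prepupal replicate 1 and 3 without prepupal replicate 3, and it was 36 with factors from genes of at least 10 CPM, 31 with upper-quartile factors and 6 with RLE factors. Of 30 genes of the secretory pathway, 9 were lower and 1 was higher; *Sec61alpha*, the channel through which secreted proteins enter the endoplasmic reticulum, had 123, 138 and 109.9 CPM in prepupae, against 458, 226 and 164 CPM at the late stage (-1.19 ± 0.26, adjusted p = 0.00281). Without prepupal replicate 3, 4 members of this list were lower. Of 18 aminoacyl-tRNA synthetase genes, 8 were lower and 1 was higher; *HisRS*, the lower member with the largest change, averaged 18.8 ± 1.52 CPM in prepupae and 31.8 ± 5.69 CPM at the late stage (-0.76 ± 0.13, adjusted p = 2.88e-04). The number of lower synthetase genes was 5 without prepupal replicate 1.

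**Figure D3:**
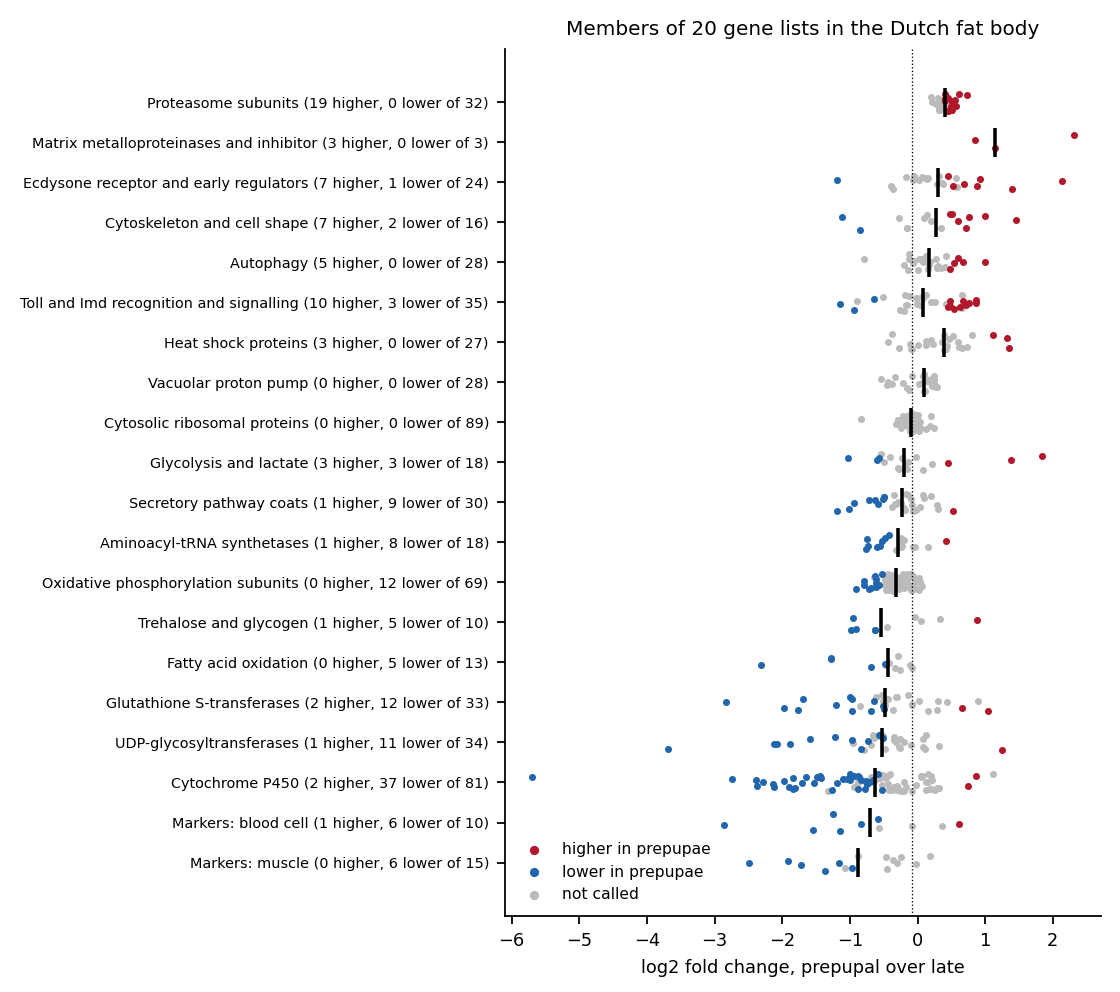
Log2 fold change of prepupal over late Dutch libraries (horizontal axis) for each tested member of 20 gene lists, with members called higher in red, lower in blue and not called in grey; black bars are list medians and the dotted line is the median of all tested genes, -0.09. All 32 proteasome genes of the list lie right of 0, and 37 of 81 cytochrome P450 genes are called lower.

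In lipid metabolism, 5 of 13 fatty acid oxidation genes were lower, none was higher, and all 13 log2 fold changes were negative (median -0.44). *Mcad*, medium-chain acyl-CoA dehydrogenase, had 163, 195 and 170.1 CPM in the prepupal libraries, against 1290, 675 and 653 CPM in the late libraries (-2.31 ± 0.23, adjusted p = 1.17e-06). *Mcad* overlaps *CG7457* on the other strand, which was also lower (-2.15). *Etf-QO*, which passes electrons from fatty acid oxidation to the respiratory chain, had prepupal levels of 88.0, 94.8 and 82.9 CPM and late levels of 305, 175 and 165 CPM (-1.28 ± 0.20, adjusted p = 1.40e-04). In both genes the stages did not overlap and late replicate 1 was the highest late library. The acyl-CoA oxidase gene *Acox57D-d* (-1.28 ± 0.18, adjusted p = 4.64e-05) and *Mtpbeta* of the trifunctional protein (-0.69 ± 0.16, adjusted p = 0.00457) were lower too. The summed level of the list was 2056 to 2325 CPM in prepupal and 2999 to 4740 CPM in late libraries, again with the highest value in late replicate 1. Without late replicate 1, 4 members were lower and 1 log2 fold change was positive. The number of lower members was also 4 without each of the prepupal replicates, and it was 8 without late replicate 3. Of 14 tested genes of fatty acid synthesis, 3 were higher and 3 were lower. The higher members numbered 0 without prepupal replicate 2, and 1 without late replicate 1, late replicate 3 or prepupal replicate 1. In this list, *FASN1*, fatty acid synthase, had 318, 398 and 305 CPM in prepupae, against 608, 423 and 353 CPM at the late stage and was not called (-0.44 ± 0.23, adjusted p = 0.243), after a mean of 3644 CPM in early libraries. *mdy*, the diacylglycerol acyltransferase of triglyceride synthesis, was lower (-0.93 ± 0.17, adjusted p = 5.87e-04). *NLaz*, a secreted lipocalin that carries lipids, had 361, 368 and 333 CPM in the prepupal libraries, against 85.1, 119.6 and 105 CPM in the late libraries (1.78 ± 0.17, adjusted p = 5.65e-07), and its early mean was 7.69 CPM.

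**Figure D4:**
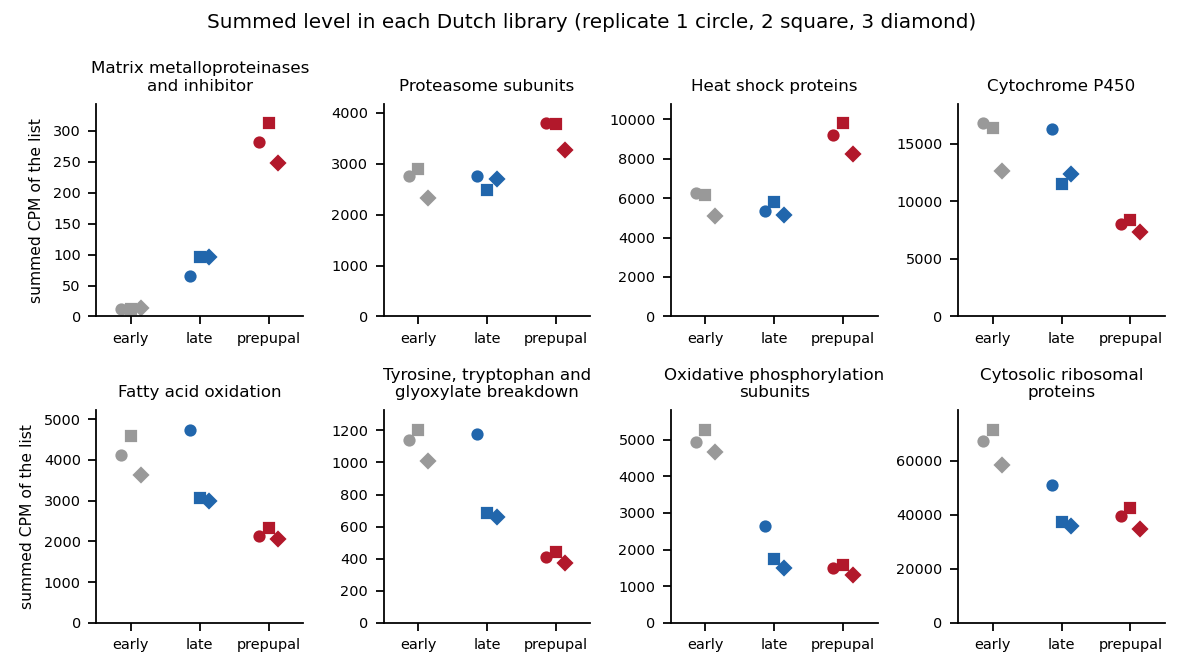
Summed CPM (vertical axes, each from 0) of 8 gene lists in each Dutch library at the early (grey), late (blue) and prepupal (red) stage, with replicate 1 as a circle, 2 as a square and 3 as a diamond. The metalloproteinase sum is 249 to 313 CPM in prepupae, against 65.0 to 96.3 CPM at the late stage, and the late circle is the highest late library in the cytochrome P450, fatty acid oxidation and oxidative phosphorylation panels.

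*Hex-C*, a hexokinase of the fat body, had prepupal levels of 56.5, 53.7 and 52.1 CPM and late levels of 11.3, 17.8 and 16.4 CPM (1.83 ± 0.18, adjusted p = 1.10e-06); it lies within *CG8079*, which codes on the other strand and was also higher (1.57). *PyK*, pyruvate kinase, had 266, 288 and 271 CPM in prepupae, against 117, 112 and 88.6 CPM at the late stage (1.37 ± 0.13, adjusted p = 6.90e-07). *Tpi*, triosephosphate isomerase, had 152, 159 and 146 CPM in the prepupal libraries, against 468, 255 and 206 CPM in the late libraries (-1.02 ± 0.21, adjusted p = 0.00159). The stages did not overlap in these 3 genes. Of 18 genes of glycolysis and lactate, 3 were higher and 3 were lower. The lower members numbered 1 without late replicate 1, prepupal replicate 1 or prepupal replicate 3, and 5 without late replicate 3. *Pepck1*, the member with the most counts, had prepupal levels of 1463, 1543 and 1693 CPM and late levels of 2102, 1046 and 889 CPM and was not called (0.22 ± 0.25, adjusted p = 0.641), while without late replicate 1 its adjusted p was 0.0408. Of 10 genes of trehalose and glycogen, 5 were lower and 1 was higher. *Tps1*, which makes trehalose, the main blood sugar of insects, had 337, 356 and 338 CPM in prepupae, against 959, 521 and 457 CPM at the late stage (-0.91 ± 0.20, adjusted p = 0.00275). *Pgm1* (-0.98) and the glycogen branching enzyme gene *AGBE* (-0.95) were lower, and *Pgm2a* was higher (0.88 ± 0.12, adjusted p = 2.71e-05). In amino acid breakdown, *Hn*, phenylalanine hydroxylase, was lower (-0.69 ± 0.16, adjusted p = 0.0053), as were *Agxt* and *Faa* (-1.49), and the other 8 of the 11 genes were not called. The summed level of that list was 376 to 442 CPM in prepupal and 662 to 1178 CPM in late libraries. In the purine and urate list of 14 genes, *Adgf-A*, an adenosine deaminase, was higher (1.02 ± 0.18, adjusted p = 4.72e-04) and overlaps *Adgf-A2* on the same strand, *Adss* was higher (0.73 ± 0.15, adjusted p = 0.00185), and *ry*, xanthine dehydrogenase, was lower (-0.86 ± 0.18, adjusted p = 0.00166).

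Cytochrome P450 genes, which act in detoxification and hormone metabolism, were the list with the most lower members. Of 81 tested cytochrome P450 genes, 37 were lower and 2 were higher, beside 7.45% of all genes lower; the median log2 fold change was -0.62, and in 45 of the 81 every prepupal library lay below every late one. After *Cyp4e3*, the largest changes were those of *Cyp6w1*, with 12.4, 12.7 and 10.4 CPM in the prepupal libraries, against 81.3, 103 and 51.8 CPM in the late libraries (-2.74 ± 0.26, adjusted p = 6.11e-07), *Cyp6a9* (-2.38 ± 0.31, adjusted p = 2.09e-05) and *Cyp28a5* (-2.37 ± 0.30, adjusted p = 1.35e-05). The member with the most counts was *Cyp6g1*, known for its role in insecticide resistance, with prepupal levels of 5062, 5345 and 4740 CPM and late levels of 10788, 7584 and 8557 CPM (-0.83 ± 0.16, adjusted p = 0.00108). In each of these genes the lowest late library was above the highest prepupal one. *Cyp310a1* (0.74) and *Cyp309a1* (0.86) were the 2 higher members. The summed P450 level was 7369 to 8371 CPM in prepupal and 11504 to 16288 CPM in late libraries (ratio 0.592, exact permutation test, p = 0.1). The number of lower P450 genes stayed between 31 and 37 when each library was left out. Near-identical P450 copies such as *Cyp12d1-d* (-1.27) and *Cyp12d1-p* (-1.19) may share reads.

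Of 33 tested glutathione S-transferase genes, 12 were lower (10 without late replicate 1 and 8 without prepupal replicate 2) and 2 were higher (median -0.49), and of 34 tested UDP-glycosyltransferase genes, 11 were lower and 1 was higher (median -0.53). *GstT4* had 49.5, 73.5 and 71.9 CPM in prepupae, against 784, 321 and 275 CPM at the late stage (-2.82 ± 0.40, adjusted p = 4.87e-05). *GstD1*, the transferase with the most counts, had 501, 509 and 459 CPM in the prepupal libraries, against 419, 325 and 339 CPM in the late libraries and was not called (0.44 ± 0.16, adjusted p = 0.0634), while without late replicate 1 its adjusted p was 0.0414. *Ugt36D1*, the glycosyltransferase gene with the most counts, was the higher one, with prepupal levels of 373, 371 and 287 CPM and late levels of 101, 172 and 159 CPM (1.25 ± 0.23, adjusted p = 5.69e-04). The summed level of the glycosyltransferases was 435 to 538 CPM in prepupal and 411 to 558 CPM in late libraries, with overlapping stages.

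Of 35 genes of Toll and Imd recognition and signalling (median 0.08), 10 were higher (28.6%) and 3 were lower (8.57%, against 7.45% of all tested genes). *modSP*, the serine protease at the head of the Toll cascade, had 102, 108 and 98.0 CPM in prepupae, against 59.8, 56.8 and 52.6 CPM at the late stage (0.86 ± 0.13, adjusted p = 8.66e-05). *PGRP-LC*, the Imd receptor, had 46.4, 48.2 and 38.5 CPM in the prepupal libraries, against 18.5, 27.0 and 27.8 CPM in the late libraries (0.86 ± 0.15, adjusted p = 3.10e-04). *Dif* (0.76), *imd* (0.71) and *Myd88* (0.68), which carry the signal inside the cell, were also higher, *Dif* with an adjusted p of 0.101 without late replicate 1. In *modSP* and *PGRP-LC* all prepupal libraries lay above the late ones. The Toll ligand gene *spz* was lower (-1.15 ± 0.25, adjusted p = 0.0023), as was the recognition gene *GNBP1* (-0.94 ± 0.23, adjusted p = 0.00654). Without late replicate 1, 6 members were higher. Of 19 tested antimicrobial peptide genes, 1 was higher and 1 was lower (5.26% in each direction, against 7.68% higher and 7.45% lower of all tested genes). *Drsl5*, a drosomycin-like gene, had prepupal levels of 803, 751 and 532 CPM and late levels of 114, 218 and 225 CPM (1.90 ± 0.27, adjusted p = 5.46e-05). *AttC* was lower (-0.94), with an adjusted p of 0.106 without late replicate 1, 0.0684 without late replicate 2, 0.172 without prepupal replicate 1 and 0.128 without prepupal replicate 2. None of 12 Bomanin genes and none of 6 tested Turandot genes was called; the Bomanin sum was 12.1, 82.4 and 42.8 CPM in the prepupal libraries and 27.3, 14.4 and 24.4 CPM in the late libraries, with overlapping stages.

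Of 27 heat shock protein genes, 3 were higher (11.1%, against 7.68% of all tested genes, and 1 without late replicate 1) and none was lower. *Hsp23*, a small heat shock protein gene known to respond to ecdysone, had 4708, 4459 and 3659 CPM in prepupae, against 1203, 1896 and 1903 CPM at the late stage (1.36 ± 0.33, adjusted p = 0.0061), and an adjusted p of 0.0545 without late replicate 1. *Hsp67Ba* was higher too (1.32 ± 0.25, adjusted p = 6.63e-04), and *Hsp67Bc* (1.12) had an adjusted p of 0.0951 without late replicate 1, 0.0748 without late replicate 2, 0.101 without late replicate 3, 0.112 without prepupal replicate 2 and 0.0828 without prepupal replicate 3. Both ferritin subunit genes rose, *Fer1HCH* with 662, 722 and 587 CPM in the prepupal libraries, against 353, 345 and 324 CPM in the late libraries (0.95 ± 0.13, adjusted p = 2.84e-05), and *Fer2LCH* (0.70 ± 0.13, adjusted p = 8.89e-04), which overlaps it on the other strand; the metallothionein gene *MtnA* was lower, with prepupal levels of 3.72, 4.21 and 2.76 CPM and late levels of 8.60, 16.7 and 14.2 CPM (-1.91 ± 0.46, adjusted p = 0.00585). In nutrient signalling, *Sesn*, which encodes the TOR inhibitor sestrin, had 264, 288 and 248 CPM in prepupae, against 122, 124 and 122 CPM at the late stage (1.12 ± 0.14, adjusted p = 1.24e-05), and *REPTOR*, a transcription factor held back by TOR, was higher (0.59 ± 0.14, adjusted p = 0.00629). The other 17 of 19 genes of the TOR list were not called, so 10.5% were higher, against 7.68% of all tested genes.

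Of 18 genes on a list of secreted signals, 4 were higher and 6 were lower. Whether the fat body is the source of each signal was not tested. *Idgf6*, of the chitinase-like imaginal disc growth factors, had 426, 519.7 and 376 CPM in the prepupal libraries, against 1472, 902 and 824 CPM in the late libraries (-1.28 ± 0.20, adjusted p = 1.07e-04). *Idgf4* (-1.14 ± 0.18, adjusted p = 1.28e-04) and *Idgf5* (-1.05) fell with it, and so did *spz*, *Lst* (-0.86) and the tumour necrosis factor gene *egr* (-1.04). Apart from *NLaz*, the higher genes were the growth-blocking peptide gene *Gbp1* (1.01), *CCHa2* (0.76) and the insulin-like peptide gene *Ilp6* (0.72), which the fat body is known to secrete around metamorphosis.

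Some markers of other tissues differed between the stages, and in a bulk sample fewer cells of a type and less RNA per cell cannot be told apart. Of 15 tested muscle genes, 6 were lower and none was higher; *Mlc2*, a myosin light chain, had prepupal levels of 3.17, 3.52 and 3.56 CPM and late levels of 38.5, 10.4 and 8.53 CPM (-2.49 ± 0.43, adjusted p = 3.59e-04), although the summed muscle level, led by *Msp300*, overlapped at 603 to 897 CPM in prepupal and 736 to 865 CPM in late libraries. Without prepupal replicate 2, 10 muscle genes were lower. Of 10 blood cell genes, 6 were lower (4 without late replicate 1 or prepupal replicate 1) and 1 was higher. *Hml*, hemolectin, had 13.7, 15.2 and 15.1 CPM in prepupae, against 51.0, 40.6 and 36.5 CPM at the late stage (-1.54 ± 0.15, adjusted p = 6.11e-07), and *eater* was lower (-1.25 ± 0.18, adjusted p = 5.71e-05), while the sums of the blood cell genes overlapped at 498 to 598 CPM in prepupal and 493 to 647 CPM in late libraries. Of 86 tested cuticle and epidermis genes, 6 were lower (6.98%, against 7.45% of all tested genes) and 2 were higher (2.33%, against 7.68% of all), and their sum, led by *Cpr49Ac*, was 1330 to 1883 CPM in prepupal and 1516 to 1952 CPM in late libraries. Salivary gland genes summed to 9.18 to 10.2 CPM in prepupal and 10.8 to 18.9 CPM in late libraries, with 11 of 22 passing the filter, 6 lower (3 without late replicate 2) and 1 higher, and all stood at a few CPM or less. Gut genes summed to 18.3 to 25.8 CPM in prepupal and 32.1 to 155 CPM in late libraries; the 155 CPM belong to late replicate 2, and the only call of that list, *LysS*, had an adjusted p of 0.719 without late replicate 2, 0.0863 without prepupal replicate 1, 0.0987 without prepupal replicate 2 and 0.106 without prepupal replicate 3. The sums of 7 other marker lists were higher in every prepupal than in every late library (exact permutation test, p = 0.1 each). They were 36.5 to 40.8 CPM in prepupal and 18.4 to 23.1 CPM in late libraries for testis genes (ratio 1.81), 272 to 308 CPM in prepupal and 186 to 208 CPM in late libraries for oenocyte genes (1.52), and 40.1 to 44.3 CPM in prepupal and 28.2 to 31.3 CPM in late libraries for Malpighian tubule genes (1.41). The imaginal disc genes summed to 143 to 165 CPM in prepupal and 90.8 to 123 CPM in late libraries (1.40), the trachea genes to 55.2 to 69.7 CPM in prepupal and 42.2 to 51.7 CPM in late libraries (1.38), the female gonad genes to 117 to 134 CPM in prepupal and 95.7 to 101 CPM in late libraries (1.26), and the neuron and glia genes to 470 to 533 CPM in prepupal and 401 to 439 CPM in late libraries (1.20). With CPM by library total, the trachea sums overlapped. The genes with the highest levels in these sums were *Mst87F* (testis, 1.52), *svp* (oenocyte, 0.74), *Prestin* (Malpighian tubule, 0.66), *ap* (imaginal disc, 0.49), *uif* (trachea, 0.45, not called), *Sxl* (female gonad, 0.41) and *Syt1* (neuron, 0.32, not called), each with its log2 fold change, while 7 of 8 tested testis genes and 8 of 12 neuron and glia genes had a negative one. A single gene can carry such a sum: *svp* averaged 219 CPM in prepupae, where the mean oenocyte sum was 293 CPM. Whether the leading genes come from the named tissues or from the fat body of these females was not tested. The call of *Sxl* was lost with an adjusted p of 0.0979 without late replicate 1, 0.102 without late replicate 2, 0.0696 without prepupal replicate 1 and 0.157 without prepupal replicate 2, and that of *ap* with 0.269 without late replicate 1, 0.0849 without late replicate 2, 0.202 without prepupal replicate 1 and 0.169 without prepupal replicate 2. The part of these other tissues in the changes of matrix, cytoskeleton, immune and cuticle genes was not tested.

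Of 827 tested lncRNA genes, 25 were higher and 29 were lower, 6.53% in all, against 15.7% of the 11621 tested protein-coding genes; the median level was 1.14 CPM for lncRNA genes and 5.07 CPM for protein-coding genes. *CR44996* (chr2L:7994798-7996494, plus strand) had 14.8, 15.5 and 13.3 CPM in the prepupal libraries, against 2.70, 3.26 and 3.53 CPM in the late libraries (2.20 ± 0.20, adjusted p = 5.65e-07), and it lies inside *CG7227* on the other strand. *CR45195* (chr3R:10876834-10877783, minus strand) had prepupal levels of 0.997, 2.20 and 1.52 CPM and late levels of 22.4, 7.98 and 5.11 CPM (-2.98 ± 0.42, adjusted p = 4.23e-05), and it lies inside *Sodh2* on the other strand. Of the 54 called lncRNA genes, 26 (48.1%) overlapped on the other strand a protein-coding gene called in the same direction and 1 overlapped such a gene called in the opposite direction, whereas 84 of the 770 lncRNA genes with coordinates that were not called (10.9%) overlapped a called one. Further pairs were *CR46129* (-2.60) with the esterase gene *alpha-Est2* (-2.66), *CR43730* (-1.71) with *JhI-26* (-2.28), *CR43866* (1.26) with the beta-galactosidase gene *Gal* (1.72), and *CR45593* (1.06) with *Ama* (1.25). Because the counting is not stated to use the strand, reads of an lncRNA gene and of its partner cannot be told apart. *CR11538*, which overlaps *Lsp2* on the other strand and has the most counts of the lncRNA genes, had 22566, 24458 and 20923 CPM in prepupae, against 31778, 22832 and 21982 CPM at the late stage and was not called (-0.17 ± 0.17, adjusted p = 0.586).

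Along the chromosomes, 11 runs of at least 4 consecutive tested genes were called in the same direction, 8 of higher and 3 of lower genes. The longest was a run of 5 lower genes on chromosome arm 2R (8430115 to 8442806), *Lcp1* (-2.16), *Lcp2*, *Lcp3*, *Lcp4* and *Cyp4ad1* (-0.76). On arm 2L (13965012 to 13972173), *NimB2* (-1.79), *NimB3* (-1.17), *NimB4* (-0.86) and *NimB5* (-1.09), genes of secreted proteins of the Nimrod family, were lower, and *NimB2* had 88.4, 102 and 93.8 CPM in the prepupal libraries, against 486, 273 and 224 CPM in the late libraries. *CG7231*, *pes*, *CG7227* and *CR44996* formed a run of higher genes on arm 2L (7983946 to 7998151), and *pes*, like *CG7227*, codes for a CD36-family receptor. The call of *pes*, and with it this run, was lost without single libraries. The adjusted p of *pes* was then 0.278 without late replicate 1, 0.109 without late replicate 2, 0.0823 without prepupal replicate 1 and 0.301 without prepupal replicate 2. Over whole arms, 7.48% to 8.23% of the tested genes of the X and the 4 large autosomal arms were higher and 6.75% to 8.79% were lower.

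The Zambian population, whose libraries are separate from the Dutch ones, was compared at the same stages, with 453 genes higher (3.64%) and 1083 lower (8.69%) in prepupae. Of the Dutch lower genes, 591 were also lower in Zambian prepupae, which is 63.7% of the Dutch and 54.6% of the Zambian list. Of the Dutch higher genes, 270 were also higher in Zambian prepupae, 28.2% of the Dutch and 59.6% of the Zambian list. Across all tested genes, which are not independent replicates, the log2 fold changes of the populations had a Pearson's r of 0.43 and a Spearman's rho of 0.19. *dmGlut* (Zambian 3.48), *CG5697* (2.90), *Eip93F* (2.28), *Cyp4e3* (-3.82) and *shd* (-2.05) changed in the same direction in both. The median log2 fold change of the 957 Dutch higher genes was 0.68 in their own population and 0.23 in Zambian libraries, and that of the 928 Dutch lower genes was -0.89 in their own population and -0.73 in Zambian libraries; the Dutch values come from the genes chosen on them.

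A direct test of the difference between the populations in this change called no gene (0%) with the quasi-likelihood test of edgeR. The smallest adjusted p was 0.134, and 2309 of 12460 genes had an unadjusted p under 0.05. DESeq2 called 178 genes, nearly all in 1 direction: the log2 fold change was higher in the Dutch population in 173 and lower in 5. The cause of this 1-sided result was not tested. The proteasome genes, 19 of which were higher in the Dutch population, had no call in the Zambian population, where their median log2 fold change was 0.09; 12 of the 32 had an unadjusted p under 0.05 for the difference, and the lowest adjusted p among them was 0.186. *Cyp6w1* fell by 2.74 on the log2 scale in Dutch prepupae and by 1.11 in Zambian ones (difference -1.62 ± 0.35, adjusted p = 0.134). Only 4 genes were called in opposite directions: *mnb* (0.54 in Dutch and -0.44 in Zambian) and *CHKov1* (0.59 and -0.64) were higher in Dutch prepupae, and *CG12239* (-0.98 and 0.91) and *CG14301* (-0.89 and 1.16) were lower. The Dutch calls of all 4 were lost without single libraries. The adjusted p of *mnb* was then 0.0938 without late replicate 1 and 0.0568 without prepupal replicate 2. That of *CHKov1* was 0.161 without late replicate 1, 0.0907 without late replicate 2, 0.0744 without prepupal replicate 1 and 0.154 without prepupal replicate 2. *CG12239* had 0.111 without late replicate 2, 0.0932 without prepupal replicate 1 and 0.0709 without prepupal replicate 2, and *CG14301* had 0.0659 without late replicate 1, 0.113 without late replicate 2, 0.0603 without late replicate 3, 0.105 without prepupal replicate 1 and 0.145 without prepupal replicate 2.

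**Figure D5:**
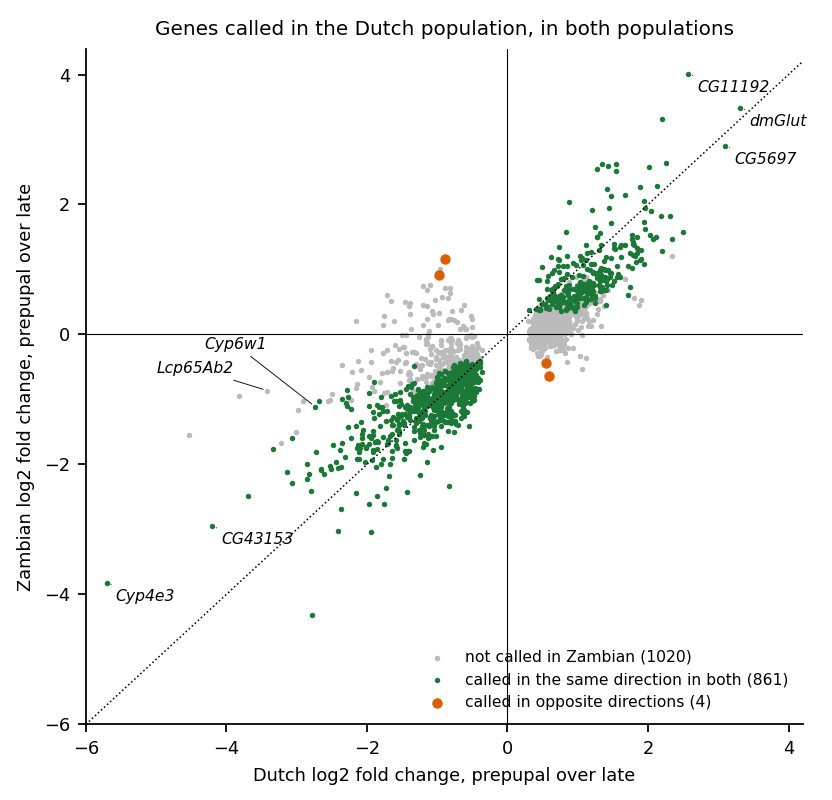
Log2 fold change of prepupal over late libraries in the Dutch population (horizontal axis) and the Zambian population (vertical axis) for the 1885 genes called in the Dutch population; the dotted line marks equal change. Genes called in the same direction in both (861) are green, those called in opposite directions (4) orange and the other 1020 grey.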

How the data were processed

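RNA of dissected larval fat bodies was sequenced after ribosomal depletion, in 18 libraries of 6 groups (2 populations, 3 stages, 3 replicates). The deposited values are raw counts per gene. The authors made these counts by mapping read pairs with NextGenMap to the FlyBase release 6 transcriptome, discarding pairs whose reads mapped to different genes or transcripts, and summing over the transcripts of a gene; the version of the mapper and the use of strand are not given in the sources used here. Reads that near-identical or overlapping genes share may therefore have been discarded or misplaced. The gene length in the deposited table, in bases, was used for TPM and not in the tests of change.

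From these counts, genes with a mean of at least 15 over the 18 libraries were kept, libraries were scaled by TMM, and 1 quasi-likelihood model with a level for each group was fitted to all 18 libraries with edgeR 4.0.16 in R 4.3.3, so that all groups share an estimate of the spread. P-values were adjusted by Benjamini-Hochberg over all 12460 genes, and genes with an adjusted p under 0.05 are called higher or lower. SE is the absolute log2 fold change divided by the square root of F. The difference between populations was a contrast of the same model. Library totals were 14998610 to 30328600 for the 6 libraries compared, and the spread between replicates of a stage had a median SD of 0.18 (prepupal) and 0.21 (late) on the log2 CPM scale. The model function was tested on simulated counts with known fold changes. Names and coordinates came from Ensembl's annotation of the BDGP6 assembly for 16343 genes, from CG or CR numbers in RefSeq for 76, and from the table itself for 19.

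Genes named are the 12 largest changes in each direction with non-overlapping stages and a mean of at least 1 CPM, the 10 most counted genes, up to 4 called members and the most counted member of each of 55 lists, and up to 4 lncRNA genes in each direction; others are said to have been chosen after their values were seen or are further called members of a list. The members and lists were chosen with earlier results of these data known. Alternatives were DESeq2 1.42.0, other scaling factors, other filters, fewer libraries in the fit, a replicate block, a covariate and leaving out each replicate.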

Additional observations from a re-analysis of the deposited data

How the results depend on the processing

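The main counts, 957 higher and 928 lower, ranged over 617 to 1097 and 656 to 1066 when each Dutch library was left out; 617 higher belonged to the fit without late replicate 1 and 618 to that without prepupal replicate 2. The number of lower genes was 1541 with factors from genes of at least 10 CPM (965 higher, 38.5% of calls), 1720 with the libraries' median chemosensory receptor level as a covariate (716 higher, 29.4%), 565 with the late and prepupal libraries alone (1077 higher, 65.6%) and 1408 under a stricter filter, a minimum mean of 100 counts. Genes called in the same direction in both populations, 861, numbered 529 with the covariate and 572 to 930 with 1 library left out, the lowest without Zambian late replicate 2. The difference between populations, 0 genes, was called for 178 with DESeq2, 5 with the covariate, 1 under the stricter filter, 1 with upper-quartile factors and up to 17 without 1 Dutch library (1 without late replicate 1, 17 without late replicate 3). The cause was not tested. With the replicate number as a block, 888 genes were higher and 863 lower, and the paired correlations of deviations, 0.03, -0.31 and 0.13, gave no pairing. Upper-quartile factors and factors from genes of at least 10 CPM moved the Zambian median of all genes to 0.20 and 0.16, against -0.00 with TMM, but the Dutch median by less than 0.1. Of 235 named genes that were called, 175 kept the call under every alternative, 54 lost it without 1 library, and none changed direction while called. The signs of 50 of 55 list medians held under the other scalings. Genes at a few CPM, among them most lncRNA, cuticle and salivary gland genes, are limited by depth.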

Other observations

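Gene families outside the lists above held called members, and those given here were chosen after their values were seen. The counts stand beside 7.68% higher and 7.45% lower among all tested genes. Of 19 tested *Nepl* genes, which code for neprilysin-like peptidases, 5 were higher and 7 were lower. *Nepl21*, which has the most counts of the called members, had 1177, 1199 and 958 CPM in the prepupal libraries, against 515, 559.7 and 606 CPM in the late libraries (0.99 ± 0.15, adjusted p = 7.27e-05). *Nepl12* had prepupal levels of 27.5, 28.1 and 33.5 CPM and late levels of 6.79, 9.33 and 9.63 CPM (1.79 ± 0.18, adjusted p = 9.63e-07). *Nepl13* had 10.8, 14 and 9.47 CPM in prepupae, against 69.6, 34.8 and 25.8 CPM at the late stage (-1.94 ± 0.26, adjusted p = 2.71e-05), and its neighbours *Nepl14* (-0.91) and *Nepl15* (-1.55) were lower too. In *Nepl21* and *Nepl12* all prepupal libraries lay above the late ones, and in *Nepl13* all lay below. Of 33 tested tetraspanin genes, 8 were higher and 3 were lower; *Tsp96F* had 398, 395 and 319 CPM in the prepupal libraries, against 107, 164 and 182 CPM in the late libraries (1.30 ± 0.23, adjusted p = 3.72e-04) and *Tsp97E* had prepupal levels of 94.7, 96.5 and 78.9 CPM and late levels of 36.5, 42.2 and 43.5 CPM (1.14 ± 0.15, adjusted p = 2.63e-05). The 3 lower tetraspanins, *Tsp42Eg* (-0.94), *Tsp42Eq* (-1.86) and *Tsp42Er* (-1.40), averaged under 5 CPM in both stages, and the call of *Tsp42Er* was lost with an adjusted p of 0.0555 without prepupal replicate 1. Of 10 tested chitinase genes, 4 were higher and none was lower, *Cht2* (0.94), *Cht5* (0.79), *Cht10* (0.65) and *Cht11* (0.41). The call of *Cht2* was lost with an adjusted p of 0.053 without late replicate 1, and that of *Cht11* with 0.175 without late replicate 1, 0.0792 without late replicate 2 and 0.0864 without prepupal replicate 2. Of 11 tested *Alg* genes, which build the sugar chain of N-glycoproteins, 4 were lower and none was higher; *Alg3* averaged 4.90 ± 1.21 CPM in prepupae and 10.1 ± 4.10 CPM at the late stage (-1.07 ± 0.23, adjusted p = 0.00223).

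The gene lists not described above differed in their share of calls, beside 15.1% of all tested genes. Of 13 genes of glycerolipid and triglyceride assembly, 3 were lower, *mdy* (-0.93), *Agpat2* (-0.63) and *Gpdh1* (-0.60). Of 8 lipoprotein and lipid carrier genes, 3 were higher, *NLaz* (1.78), *GLaz* (0.97) and *Karl* (0.46), and the receptor gene *LpR1* was lower (-0.66). Without prepupal replicate 1, the number of lower glycerolipid genes was 1 and that of higher lipoprotein and carrier genes was 1, and the number of higher lipoprotein and carrier genes was also 1 without late replicate 1. Among the insulin pathway genes, *Pi3K21B* (0.42) was higher and *Pdk1* (-0.64) was lower. Of these genes, *Agpat2*, *Gpdh1*, *GLaz*, *Karl* and *Pi3K21B* lost the call in at least 1 fit that left out 1 library, with adjusted p of up to 0.074 for *Agpat2* (without prepupal replicate 1), 0.122 for *Gpdh1*, 0.141 for *Karl* and 0.142 for *Pi3K21B* (all without late replicate 1), and 0.183 for *GLaz* (without prepupal replicate 2). In the list of 28 DNA replication and endocycle genes, only *fzr* (-0.68) was called, and none of 13 small RNA silencing genes was. Among 12 imaginal disc genes, 4 were higher (2 without late replicate 1 and 2 without prepupal replicate 2), led by the growth factor gene *dpp* (1.12). Among 6 oenocyte genes, *FASN3* (1.27) and *svp* (0.74) were higher, *FASN3* with an adjusted p of 0.0858 without late replicate 1, 0.11 without late replicate 3, 0.065 without prepupal replicate 1, 0.066 without prepupal replicate 2 and 0.061 without prepupal replicate 3. Of 110 tested chemosensory receptor genes, which the fat body is not known to use, 3 were lower (2.73%, against 7.45% of all tested genes) and none was higher; the lower ones numbered 0 without prepupal replicate 1, 1 without late replicate 2 or prepupal replicate 2, 6 without prepupal replicate 3 and 0 with DESeq2. Their median log2 CPM was 0.03, -0.23 and 0.32 in the prepupal libraries and 0.23, 0.49 and 0.45 in the late libraries.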
